A study of Homo sapiens with 24 samples.

Results

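The genes described here are the classical cadherins, the related cadherins numbered with them, and the protocadherins that lie outside the large protocadherin clusters. They were taken as the protein-coding genes whose symbol in the SK-N-SH CRISPRi count table starts with CDH or PCDH followed by a digit. The rule found 36 genes among the 61541 listed there, and all 36 were matched by Ensembl identifier in the SK-N-SH siRNA table, of 58735 genes, and in the SK-N-AS CRISPRi table, of 78932 genes. Of the 36, 5 encode type I cadherins (CDH1, CDH2, CDH3, CDH4 and CDH15) and 13 type II cadherins (CDH5, CDH6, CDH7, CDH8, CDH9, CDH10, CDH11, CDH12, CDH18, CDH19, CDH20, CDH22 and CDH24). A further 5 carry the name without being classical cadherins (CDH13, CDH16, CDH17, CDH23 and CDH26). The protocadherins comprise 5 of the delta-1 kind (PCDH1, PCDH7, PCDH9, PCDH11X and PCDH11Y), 5 of the delta-2 kind (PCDH8, PCDH10, PCDH17, PCDH18 and PCDH19) and 3 others (PCDH12, PCDH15 and PCDH20). By the tables' coordinates, chromosome 16 holds 8 of them, chromosome 5 holds 7, and chromosomes 13 and 18 hold 4 each.

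RNA sequencing was carried out on neuroblastoma cell lines after knockdown of FAM167A, also called DIORA1, in a study of a protein that binds the MRCK kinases and of cell motility. SK-N-SH is a line long known to contain neuroblast-like and flat, adherent cell forms, and SK-N-AS is another neuroblastoma line. With siRNA, 5 SK-N-SH libraries from cells given a pool of siRNAs against DIORA1 were compared with 5 libraries from cells given NTC siRNA. In the CRISPRi experiments, cells carried SpCas9-KRAB, a Cas9 protein fused to a repressor domain, with the guide sgDIORA1 or with sgGal4, a guide named for a yeast gene. These gave 3 knockdown and 3 control libraries in SK-N-SH, and 4 knockdown and 4 control libraries in SK-N-AS. NTC marks the control in every experiment, so all CRISPRi controls carried the Cas9 fusion and a guide too. The sources used here do not say whether the guide cells were clones, how many guides were used, how long after knockdown RNA was taken, or whether replicates were separate cultures. The p-values therefore measure only the spread between these libraries, which may be technical.

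Cadherins are adhesion receptors that depend on calcium. The extracellular repeats of classical cadherins bind cadherins on the neighbouring cell, and their cytoplasmic tails bind catenins, which link them to actin. Neural crest derivatives, among them the sympathetic lineage in which neuroblastoma arises, typically carry N-cadherin and type II cadherins in place of E-cadherin. Delta protocadherins have short conserved tail motifs, bind weakly to their own kind, and some recruit the WAVE complex, which starts branched actin.

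The targeted gene was lower in every knockdown library than in every control of its experiment. FAM167A stood at 57.7 to 71.4 CPM (counts scaled to a common library total) in siRNA knockdown libraries, against 167.7 to 201.4 CPM in their controls. In SK-N-SH CRISPRi it stood at 2.62 to 3.79 CPM with knockdown and 229.9 to 255.2 CPM in controls, and in SK-N-AS at 9.17 to 10.9 CPM in knockdown and 90.8 to 98.7 CPM in control libraries. The fitted level that remained was 34.7%, 1.33% and 10.7% of control for siRNA, SK-N-SH CRISPRi and SK-N-AS CRISPRi. The libraries held 71464698 to 90255175 reads in the siRNA experiment, 11690515 to 21628076 in SK-N-SH CRISPRi and 29985858 to 104455853 in SK-N-AS CRISPRi. For SK-N-AS, 87.7% to 91% of the counts between 1 and 20 were even, against 59% to 62.6% with siRNA and 38.7% to 39.9% in SK-N-SH CRISPRi. Whether each read is an independent molecule is not known for any of the experiments. Within the siRNA experiment, knockdown libraries 3 and 4 and control library 5 stood apart from their groups in their counts, and without them the same numbers of these genes were called (4 down and 1 up). Several of the marker lists differed between knockdown and control libraries. The summed adrenergic list (9 genes, among them DBH) stood at 948.7 to 1036 CPM in SK-N-SH CRISPRi knockdown libraries and 2562 to 2787 CPM in controls, and all 8 of its tested genes fell, while the summed mesenchymal list (8 genes such as VIM and FN1) stood at 11760 to 12400 CPM in knockdown and 6203 to 7080 CPM in control libraries, with 7 of 8 up. In SK-N-AS, 6 of 9 adrenergic genes fell and 7 of 8 mesenchymal genes rose with 1 down. The adrenergic sum there was 1120 to 1167 CPM in knockdown and 1374 to 1427 CPM in control libraries. The mesenchymal sum there was 2899 to 2970 CPM in knockdown and 2569 to 2607 CPM in control libraries. With siRNA 6 of 8 mesenchymal genes fell, and their list summed to 2076 to 2419 CPM in knockdown and 3044 to 3428 CPM in control libraries. Of 8 tested adrenergic genes 1 rose with siRNA and none fell. The adrenergic sums overlapped at 3797 to 4554 CPM in knockdown and 3815 to 4259 CPM in control libraries. The 5 fibroblast markers summed to 1159 to 1219 CPM in SK-N-SH CRISPRi knockdown libraries and 636.9 to 681.2 CPM in controls, with all 5 up. They summed to 342.3 to 357.6 CPM in siRNA knockdown libraries and 309.0 to 336.2 CPM in controls (4 of 5 up), and to 1415 to 1486 CPM in SK-N-AS knockdown libraries and 1227 to 1283 CPM in controls (3 up and 2 down). Summed Schwann cell and glial markers reached at most 5.63 CPM in a library, with no FOXD3 read in any experiment and no SOX10 read in the CRISPRi experiments. Epithelial and endothelial markers summed to at most 35.5 CPM in a library, and the epithelial regulator ESRP1 had no read. The 4 blood markers summed to at most 1.32 CPM in the SK-N-SH libraries, but to 436.4 to 463.9 CPM in SK-N-AS knockdown libraries and 517.6 to 561.4 CPM in controls. Nearly all of that was PTPRC, the leukocyte antigen CD45, which fell there to a mean of 450.6 CPM, against 541.5 CPM in controls (log2 fold change -0.27 ± 0.03, adjusted p = 5.90e-10 by edgeR), while CD3E and HBB had no read. In bulk RNA, fewer cells of a type and less RNA per cell cannot be told apart, and the part of these markers in the results that follow was not tested.

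Promoter sequence is shown for PCDH17, PCDH18 and CDH2, the genes with the largest change in SK-N-SH CRISPRi among those tested in all 3 experiments with a listed window, and for PCDH7, called in all 3 experiments. The windows come from RefSeq on GRCh38.p14, run from 250 bases before to 50 after an annotated start, and are written 5′ to 3′ on the gene's strand with each CG dinucleotide in capitals. They lie at chr13:57631494-57631793 on the plus strand for PCDH17, chr4:137532445-137532744 on the minus strand for PCDH18, chr18:28177081-28177380 on the minus strand for CDH2 (the upstream of its listed starts) and chr4:30720119-30720418 on the plus strand for PCDH7.
PCDH17: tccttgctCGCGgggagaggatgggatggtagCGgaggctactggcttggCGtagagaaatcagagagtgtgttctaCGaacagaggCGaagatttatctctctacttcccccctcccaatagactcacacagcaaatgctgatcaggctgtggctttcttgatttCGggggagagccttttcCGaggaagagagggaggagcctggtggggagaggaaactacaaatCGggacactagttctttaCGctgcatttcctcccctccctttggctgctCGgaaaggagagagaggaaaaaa
PCDH18: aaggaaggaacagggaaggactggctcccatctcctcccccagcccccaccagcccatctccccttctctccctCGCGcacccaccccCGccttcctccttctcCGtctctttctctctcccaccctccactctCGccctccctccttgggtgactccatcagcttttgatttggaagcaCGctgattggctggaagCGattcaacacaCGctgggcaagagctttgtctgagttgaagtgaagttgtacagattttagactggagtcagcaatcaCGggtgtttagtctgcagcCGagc
CDH2: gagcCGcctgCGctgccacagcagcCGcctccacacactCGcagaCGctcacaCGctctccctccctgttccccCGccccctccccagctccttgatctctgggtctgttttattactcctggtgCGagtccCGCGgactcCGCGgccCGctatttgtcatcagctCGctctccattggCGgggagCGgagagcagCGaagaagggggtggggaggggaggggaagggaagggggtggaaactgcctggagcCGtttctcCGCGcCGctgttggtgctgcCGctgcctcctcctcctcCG
PCDH7: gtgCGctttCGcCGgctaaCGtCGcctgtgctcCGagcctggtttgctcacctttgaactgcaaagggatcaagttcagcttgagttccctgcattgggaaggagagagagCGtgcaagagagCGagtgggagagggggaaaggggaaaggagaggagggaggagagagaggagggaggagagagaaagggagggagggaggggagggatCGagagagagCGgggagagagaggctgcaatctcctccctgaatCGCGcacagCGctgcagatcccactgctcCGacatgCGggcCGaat
The CDH2 window holds 23 CG dinucleotides, that of PCDH7 holds 16, that of PCDH17 holds 11 and that of PCDH18 holds 10. Of the 36 genes, 23 had a window, with 38 windows in all, and the median was 10 CG dinucleotides over these and 14 over all 35116 windows. The letters CAGGTG, an E-box form read by ZEB and SNAI factors, were found on either strand in 10.5% of the cadherin windows, and in 20.6% of all windows. GGAATG, a core read by TEAD factors, was found in 5.26%, and in 14% of all windows, and TATAAA in 18.4%, and in 11.5% of all windows. The PCDH11Y windows from 5055838 and 5055840 cover nearly the same bases, so TATAAA there counts in both. CDH11, PCDH10, CDH13 and CDH24 had no window and are not in these shares. None of the 4 windows printed here holds any of these letters, which says only that they are absent from these stretches. The other listed CDH2 window, at chr18:28036592-28036891 and not printed, holds 1 match of TATAAA.

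In SK-N-SH, CRISPRi of FAM167A was accompanied by more RNA of CDH2, PCDH10, CDH11, PCDH18 and PCDH7, which make up most of the family's expression there. CDH13 and CDH9 rose too, and PCDH17, CDH23, CDH24 and PCDH1 fell. In those controls CDH24 took 5.99% of the family's summed level per kilobase of gene length, as CDH11 did. With siRNA in the same line, CDH2, CDH13, CDH18 and PCDH10 fell and PCDH7 rose. In SK-N-AS, PCDH11X, CDH10, PCDH10, PCDH9 and CDH11 rose, and CDH22, PCDH1, PCDH18, PCDH7 and CDH24 fell. Calls were made where edgeR's quasi-likelihood test gave an adjusted p under 0.05 (Benjamini-Hochberg over every gene in the fit). Each log2 fold change is knockdown over control and is followed by its standard error. After the filter on low counts, 15 of the 36 genes could be tested in SK-N-SH CRISPRi, of which 7 rose and 4 fell. That is 73.3% of those tested, where 55.8% of all tested genes were called (27.7% up and 28% down). In SK-N-AS CRISPRi 18 were tested, 5 rose and 5 fell, or 55.6% against a background of 30.6%. In the siRNA experiment 22 were tested, 1 rose and 4 fell, or 22.7% against a background of 9.53%, of which 2.55% up and 6.98% down. Called changes of at least 2-fold numbered 5 in SK-N-SH CRISPRi (background 10.8%), 2 in SK-N-AS (2.99%) and 2 with siRNA (0.699%). Libraries of both groups did not overlap for 11, 12 and 6 genes in SK-N-SH CRISPRi, SK-N-AS CRISPRi and siRNA, with backgrounds of 60.7%, 29.1% and 8.74%. The median log2 fold change over the tested genes was 0.23 in SK-N-SH CRISPRi (-0.01 over all genes), 0.04 in SK-N-AS (0.00) and 0.02 with siRNA (0.01).

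Across experiments, 27 of the 36 genes were tested at least once and 11 in all 3 (CDH2, CDH11, CDH18, CDH24, PCDH1, PCDH7, PCDH9, PCDH10, PCDH15, PCDH17 and PCDH18). At least 1 call was made for 16 genes. PCDH7 and PCDH10 were called in all 3 experiments, 6 genes in 2 and 8 in 1, and neither of the genes called in all 3 had the same direction throughout. The plot of log2 fold changes by experiment shows these calls side by side.

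**Figure D1:**
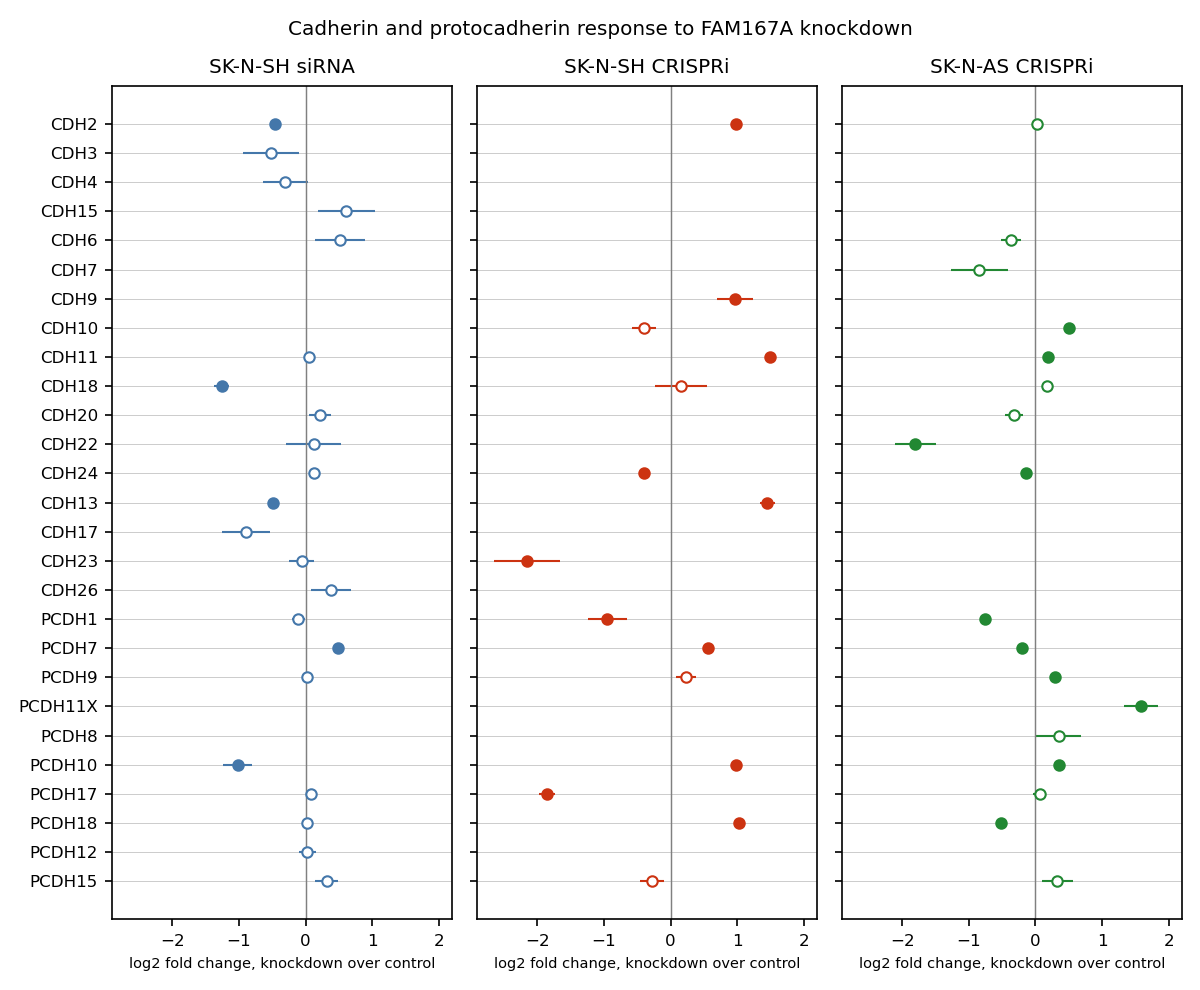
Log2 fold change, knockdown over control, of the 27 cadherin and protocadherin genes tested in at least 1 experiment (points, with standard error bars; filled where the adjusted p is under 0.05, open where not, absent where the gene was not tested). CDH2 lies right of 0 in SK-N-SH CRISPRi (0.98), left of 0 with siRNA (-0.47) and at 0.02 in SK-N-AS, and PCDH18 lies at 1.03 in SK-N-SH CRISPRi and at -0.51 in SK-N-AS.

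Among the type I cadherins, CDH2 (N-cadherin, ENSG00000170558, chr18:27932879-28177946 on GRCh38 as in the tables), the main classical cadherin of neural and mesenchymal cells, was the highest in every group per length. In SK-N-SH CRISPRi it stood at 1090, 1118 and 1064 CPM in knockdown libraries and at 569.9, 525.5 and 560.2 CPM in controls. The groups were far apart, and the log2 fold change was 0.98 ± 0.04 (adjusted p = 3.16e-22). With siRNA in the same line CDH2 ran the other way, at 345.0, 360.7 and 379.6 CPM (lowest, median and highest of 5) in knockdown libraries and 484.5, 505.3 and 508.9 CPM in controls. These groups did not overlap either, and the log2 fold change was -0.47 ± 0.04 (adjusted p = 2.55e-08). In SK-N-AS the libraries stood at 938.8, 938.2, 966.5 and 962.4 CPM in knockdown and 911.2, 964.8, 938.9 and 933.5 CPM in control. They overlapped, and the log2 fold change of 0.02 ± 0.02 was not called (adjusted p = 0.524).

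The other type I genes were close to silent. CDH1, the E-cadherin of epithelia, had 4 reads in all SK-N-SH CRISPRi knockdown libraries together and 2 in their controls, and 0 and 2 reads in SK-N-AS. With siRNA CDH1 had 47 reads in knockdown and 30 in control libraries and was not tested. CDH3 (P-cadherin), CDH4 (R-cadherin) and CDH15 (M-cadherin of muscle) passed the filter only with siRNA, each at a mean under 0.4 CPM in both groups, and none was called (adjusted p = 0.52, 0.664 and 0.445). CDH4 had no read in either SK-N-SH CRISPRi group.

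Of the type II cadherins, CDH11 (OB-cadherin, ENSG00000140937, chr16:64943753-65126112), a cadherin of mesenchyme and migrating neural crest, had the largest rise in SK-N-SH CRISPRi. It stood at 556.9, 583.4 and 576.7 CPM in knockdown libraries and at 203.2, 196.1 and 207.9 CPM in controls. The groups were well apart, with a log2 fold change of 1.499 ± 0.04 (adjusted p = 5.08e-28). In SK-N-AS it stood at 170.6, 172.4, 176.1 and 182.1 CPM in knockdown and 153.2, 158.9, 151.4 and 152.1 CPM in control libraries. The separation was small but complete, with a log2 fold change of 0.19 ± 0.03 (adjusted p = 1.96e-06). With siRNA CDH11 ran at 153.9, 162.3 and 167.6 CPM (lowest, median and highest) in knockdown and 152.4, 154.0 and 159.1 CPM in control libraries, which overlapped (log2 fold change 0.05 ± 0.04, adjusted p = 0.441).

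CDH18 (ENSG00000145526), a type II cadherin of the nervous system, had the largest called fall with siRNA. It stood at 1.55, 2.06 and 2.13 CPM (lowest, median and highest) in knockdown libraries and 4.30, 4.70 and 5.18 CPM in controls, with no overlap and a log2 fold change of -1.26 ± 0.11 (adjusted p = 3.13e-08). In SK-N-SH CRISPRi CDH18 was scarce, at 0.85, 0.675 and 0.511 CPM in knockdown and 0.827, 0.594 and 0.485 CPM in control libraries, and was not called (0.16 ± 0.39, adjusted p = 0.746). In SK-N-AS it stood at 8.70, 9.83, 8.51 and 9.23 CPM in knockdown and 8.27, 7.66, 7.84 and 8.5 CPM in control libraries. There the groups just missed overlapping and the change was not called (0.17 ± 0.07, adjusted p = 0.0814).

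CDH24 (ENSG00000139880), a type II cadherin that binds catenins, fell in both CRISPRi experiments. It stood at 44.7, 41.6 and 43.5 CPM in SK-N-SH knockdown libraries and 56.9, 55.9 and 57.4 CPM in controls (log2 fold change -0.39 ± 0.06, adjusted p = 1.40e-07). In SK-N-AS the values were 48.2, 47.3, 43.9 and 44.4 CPM in knockdown and 52.5, 48.3, 50.03 and 51.01 CPM in control libraries. That fall of -0.14 ± 0.04 (adjusted p = 0.00904) lost its call without knockdown library 3 (adjusted p = 0.0509). With siRNA CDH24 averaged 63.0 ± 3.58 CPM in knockdown and 57.6 ± 3.68 CPM in control libraries (SD, n = 5 each) and was not called (0.13 ± 0.05, adjusted p = 0.115), though it passed without knockdown library 1 (adjusted p = 0.0321).

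CDH9 and CDH10, close relatives in the type II group that are best known from neurons, differed in where they were expressed. CDH9 had reads almost only in SK-N-SH CRISPRi, 101 in knockdown and 56 in control libraries, and rose (0.97 ± 0.27, adjusted p = 0.00255, 2.21 ± 0.538 CPM in knockdown and 1.14 ± 0.274 CPM in control, SD, n = 3 each). It had no read with siRNA, and 2 reads in knockdown and none in control libraries of SK-N-AS. CDH10 rose in SK-N-AS to 9.21 ± 0.633 CPM in knockdown, against 6.52 ± 0.415 CPM in control libraries (SD, n = 4 each; log2 fold change 0.51 ± 0.08, adjusted p = 2.26e-06). In SK-N-SH CRISPRi CDH10 stood at 2.63 to 3.73 CPM in knockdown and 3.88 to 5.21 CPM in control libraries and missed the threshold (-0.40 ± 0.18, adjusted p = 0.059). It passed there without knockdown library 1 (adjusted p = 0.0368) or control library 2 (0.0491), and under the replicate block (0.0404). With siRNA CDH10 had 18 knockdown and 46 control reads and was not tested.

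CDH22 (ENSG00000149654), a type II cadherin expressed in brain, had its call in SK-N-AS at low levels. It stood at 0.234, 0.154, 0.310 and 0.278 CPM in knockdown and 0.759, 0.800, 0.998 and 0.748 CPM in control libraries, from 68 and 208 reads in all. The groups did not overlap, and the log2 fold change was -1.81 ± 0.31 (adjusted p = 1.46e-05). With siRNA CDH22 averaged 0.269 CPM in knockdown and 0.249 CPM in control libraries and was not called (adjusted p = 0.906). CDH6 (K-cadherin) and CDH20 were highest in SK-N-AS and, for CDH20, also with siRNA. CDH6 averaged 1.91 CPM in SK-N-AS knockdown and 2.49 CPM in control libraries (-0.37 ± 0.15, adjusted p = 0.0566, passing without knockdown library 3 at 0.0143 and without control library 1 at 0.048). CDH20 averaged 2.03 and 2.57 CPM in the same groups (adjusted p = 0.0846), and CDH7 0.182 and 0.331 CPM (adjusted p = 0.142). CDH5 (the VE-cadherin of endothelium), CDH8, CDH12 and CDH19 were tested in no experiment, with at most 14 reads in any group.

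Among the cadherins outside the classical groups, CDH13 (T-cadherin, ENSG00000140945) is held in the membrane by a lipid anchor and has no cytoplasmic tail, and its locus overlaps the protein-coding gene HSBP1. In SK-N-SH CRISPRi it stood at 21.4, 25.6 and 20.3 CPM in knockdown and 8.52, 6.47 and 9.30 CPM in control libraries (log2 fold change 1.45 ± 0.11, adjusted p = 3.19e-12). With siRNA it ran the other way, at 22.5, 23.8 and 27.1 CPM (lowest, median and highest) in knockdown and 31.8, 33.5 and 41.4 CPM in control libraries (-0.50 ± 0.07, adjusted p = 3.66e-05). Neither pair of groups overlapped. In SK-N-AS CDH13 had 14 reads in each group and was not tested.

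CDH23 (ENSG00000107736) and PCDH15 together form the tip links of inner ear hair cells. CDH23 stood at 0.196, 0 and 0.447 CPM in SK-N-SH CRISPRi knockdown and 0.992, 1.12 and 0.926 CPM in control libraries, from 10 reads and 50 reads. The fall of -2.16 ± 0.49 (adjusted p = 0.000318) rests on these few reads and ran between -3.23 without knockdown library 3 and -1.61 without knockdown library 2, and the locus overlaps VSIR and C10orf105. With siRNA CDH23 averaged 1.34 ± 0.131 CPM in knockdown and 1.39 ± 0.415 CPM in control libraries (SD, n = 5 each) and was not called (adjusted p = 0.901). PCDH15 was tested in all 3 experiments and called in none, at 4.19 and 5.07 CPM in SK-N-SH CRISPRi knockdown and control libraries (adjusted p = 0.199), 0.931 and 0.722 CPM in SK-N-AS (0.324) and 1.37 and 1.10 CPM with siRNA (0.329). CDH17, an intestinal cadherin, and CDH26 were tested only with siRNA, where neither was called (adjusted p = 0.131 and 0.507), and CDH16, a kidney cadherin, had at most 6 reads in any group.

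Of the delta-1 protocadherins, PCDH7 (ENSG00000169851, chr4:30720415-31146805) was called in every experiment. In SK-N-SH CRISPRi it stood at 154.7, 159.3 and 151.4 CPM in knockdown and 113.8, 97.0 and 106.0 CPM in control libraries (log2 fold change 0.56 ± 0.05, adjusted p = 1.44e-12). With siRNA the same line held far less of it, at 7.39, 7.78 and 8.36 CPM (lowest, median and highest) in knockdown and 5.34, 5.37 and 6.07 CPM in control libraries (0.49 ± 0.08, adjusted p = 8.34e-05). In SK-N-AS it ran at 51.4, 51.3, 47.1 and 48.7 CPM in knockdown and 54.6, 61.9, 54.9 and 57.7 CPM in control libraries (-0.20 ± 0.04, adjusted p = 0.000261). The groups did not overlap in any of the 3 experiments, higher with knockdown in SK-N-SH by both methods and lower in SK-N-AS.

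PCDH1, which is known from airway epithelium and endothelium, fell in both CRISPRi experiments. In SK-N-AS it averaged 4.67 ± 0.289 CPM in knockdown and 7.88 ± 0.245 CPM in control libraries (SD, n = 4 each; -0.75 ± 0.08, adjusted p = 3.24e-09), without overlap. In SK-N-SH CRISPRi it rested on 46 knockdown and 98 control reads, the groups overlapped (0.607 to 1.31 CPM and 1.24 to 2.31 CPM), and the call (-0.95 ± 0.30, adjusted p = 0.00643) was lost without knockdown library 2 (adjusted p = 0.061). With siRNA PCDH1 was not called, at 10.6 ± 1.62 CPM in knockdown and 11.4 ± 0.993 CPM in control libraries (SD, n = 5 each; adjusted p = 0.556). PCDH9, a protocadherin of the brain, rose in SK-N-AS (33.2 ± 0.946 CPM in knockdown and 27.2 ± 1.56 CPM in control, SD, n = 4 each; 0.29 ± 0.05, adjusted p = 7.46e-06) and was called neither in SK-N-SH CRISPRi (adjusted p = 0.182) nor with siRNA (0.924).

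PCDH11X and PCDH11Y are near-identical copies on the sex chromosomes, so reads assigned to either are uncertain. PCDH11X had reads only in SK-N-AS, at 1.34, 0.980, 0.693 and 1.18 CPM in knockdown and 0.380, 0.267, 0.390 and 0.325 CPM in control libraries. The groups did not overlap, and the log2 fold change was 1.58 ± 0.26 (adjusted p = 8.56e-06), from 317 and 88 reads. PCDH11Y had no read in any group.

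Of the delta-2 protocadherins, PCDH10 (OL-protocadherin, ENSG00000138650, chr4:133149294-133208606), which binds the WAVE subunit NCKAP1 and is known for its part in axon growth in mouse, ranked after CDH2 in SK-N-SH CRISPRi on the scale of CPM per kilobase. It stood at 1604, 1653 and 1542 CPM in knockdown and 881.0, 729.0 and 818.1 CPM in control libraries there (log2 fold change 0.98 ± 0.05, adjusted p = 8.94e-14). In SK-N-AS it stood at 20.7, 21.9, 21.9 and 19.5 CPM in knockdown and 15.8, 15.6, 16.4 and 18.1 CPM in control libraries (0.35 ± 0.06, adjusted p = 8.94e-06). With siRNA it was scarce, at 0.385, 0.730 and 0.901 CPM (lowest, median and highest) in knockdown and 1.16, 1.36 and 1.82 CPM in control libraries (-1.02 ± 0.22, adjusted p = 0.00249). No pair of groups overlapped, and PCDH10 was higher with knockdown by CRISPRi in both lines and lower with siRNA.

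PCDH17 (ENSG00000118946, chr13:57631744-57729311), which recruits the WAVE complex to axon contacts in mouse, had the largest fall among the genes that reach 10 CPM in a control group. In SK-N-SH CRISPRi it stood at 3.73, 4.39 and 4.21 CPM in knockdown and 15.9, 15.4 and 13.8 CPM in control libraries, a log2 fold change of -1.86 ± 0.12 (adjusted p = 6.44e-16). With siRNA it was abundant and not called, at 101.4, 113.2 and 113.6 CPM (lowest, median and highest) in knockdown and 99.2, 102.3 and 109.5 CPM in control libraries (0.07 ± 0.04, adjusted p = 0.338). In SK-N-AS the libraries overlapped as well, at 4.93, 5.51, 4.70 and 5.48 CPM in knockdown and 4.66, 5.66, 4.33 and 5.36 CPM in control (0.07 ± 0.10, adjusted p = 0.666).

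PCDH18 (ENSG00000189184, chr4:137518918-137532494), whose mouse protein binds the reelin adaptor Dab1, moved in opposite directions in the CRISPRi experiments. In SK-N-SH it stood at 233.7, 238.2 and 234.1 CPM in knockdown and 110.5, 115.5 and 118.7 CPM in control libraries (log2 fold change 1.03 ± 0.04, adjusted p = 1.61e-22). In SK-N-AS it stood at 73.7, 72.0, 74.4 and 79.2 CPM in knockdown and 102.9, 113.7, 105.8 and 104.5 CPM in control libraries (-0.51 ± 0.04, adjusted p = 4.36e-14). Both pairs were fully separated, whereas with siRNA the values of 70.9, 75.0 and 81.3 CPM in knockdown and 73.0, 74.7 and 77.3 CPM in control libraries (lowest, median and highest) overlapped (0.02 ± 0.04, adjusted p = 0.88). PCDH8, whose rat form takes part in the uptake of N-cadherin at synapses, was tested only in SK-N-AS (0.398 and 0.303 CPM in knockdown and control, adjusted p = 0.482). PCDH19, which acts with N-cadherin and is mutated in an epilepsy that affects mainly females, was tested in no experiment, with 1 to 41 reads a group. PCDH12, an endothelial protocadherin, was tested only with siRNA (3.05 ± 0.249 CPM in knockdown and 3.00 ± 0.479 CPM in control, SD, n = 5 each; adjusted p = 0.93), and PCDH20 had at most 8 reads in a group. The plot of levels by library shows 9 of these genes.

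**Figure D2:**
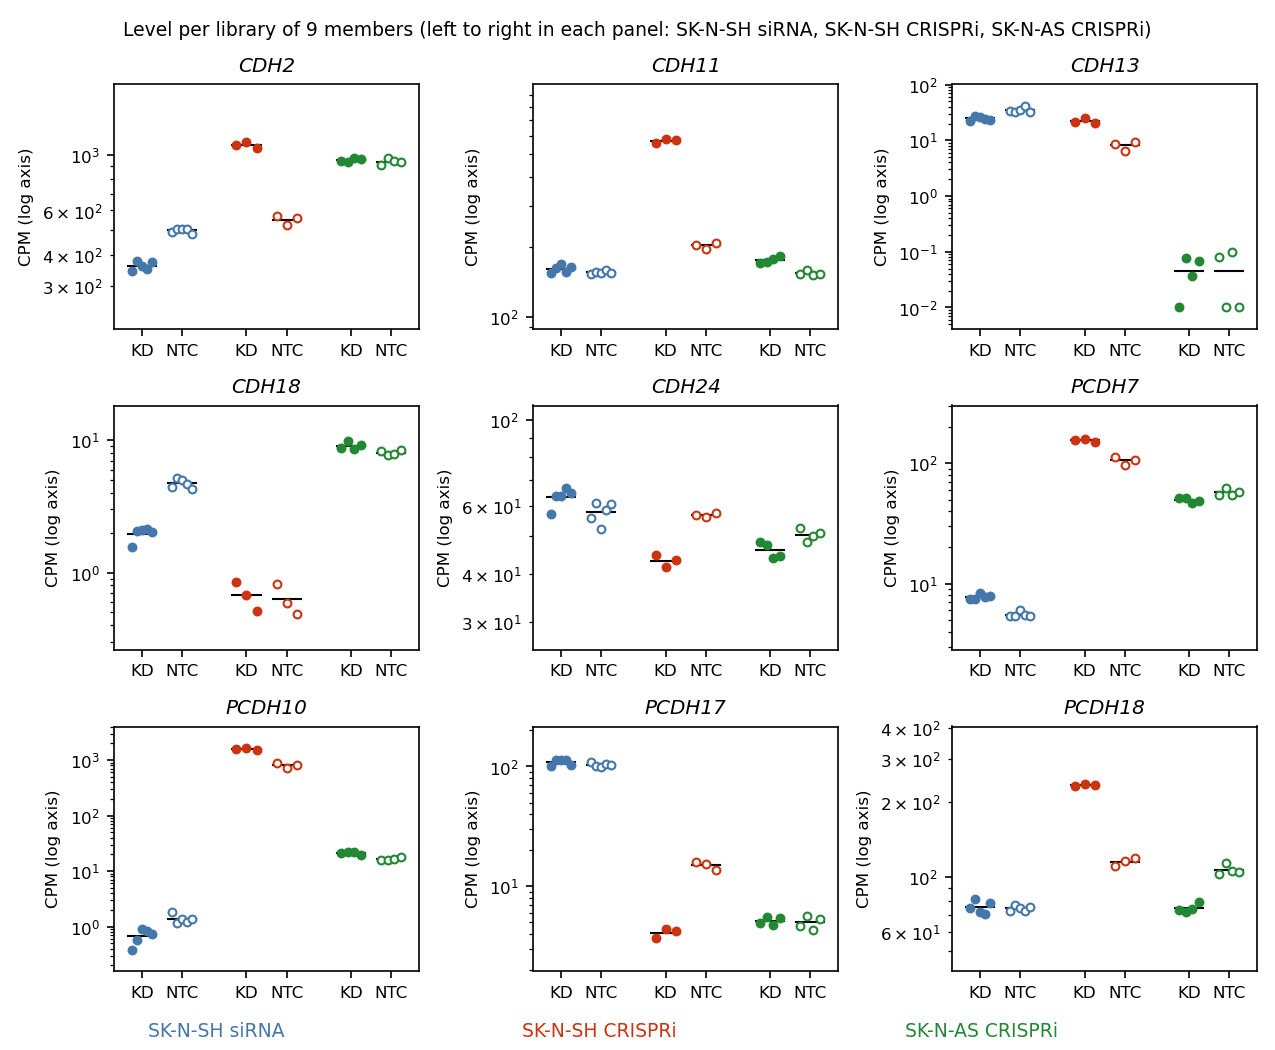
Level per library (CPM, log axis) of CDH2, CDH11, CDH13, CDH18, CDH24, PCDH7, PCDH10, PCDH17 and PCDH18, with knockdown (KD, filled) left of control (NTC, open) in each experiment and a bar at the group mean; a library with no read is drawn at 0.01 CPM. PCDH10 lies at 1542 to 1653 CPM in SK-N-SH CRISPRi knockdown libraries and at 0.385 to 0.901 CPM in siRNA knockdown libraries of the same line.

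Per kilobase of gene length (the length in the siRNA table), few genes made up nearly all of the family's summed level. The 36 genes together stood at 473.5 to 497.1 CPM per kilobase in SK-N-SH CRISPRi knockdown libraries and 237.8 to 263.5 in controls. With siRNA the sum was 126.8 to 139.5 after knockdown and 158.1 to 162.9 in controls. In SK-N-AS it was 240.0 to 245.5 after knockdown and 238.4 to 251.0 in controls. The sum was thus higher with knockdown in SK-N-SH CRISPRi, lower with siRNA and overlapping in SK-N-AS. CDH2 took 45.5% of the sum in SK-N-SH CRISPRi knockdown and 44.2% in control libraries, 54.7% and 63% with siRNA, and 79.2% and 77.6% in SK-N-AS. PCDH10 took 32.5% in knockdown and 31.6% in control libraries of SK-N-SH CRISPRi, but 0.0502% and 0.0849% with siRNA and 0.851% and 0.664% in SK-N-AS.

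**Figure D3:**
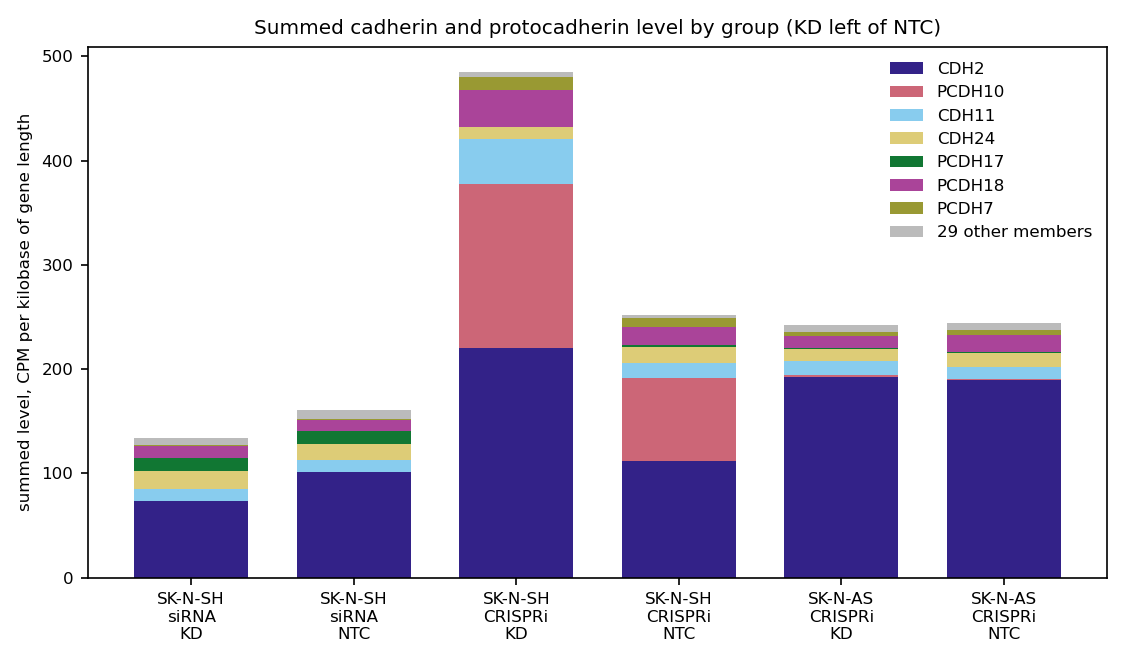
Summed mean level of the 36 genes by group, in CPM per kilobase of gene length, with knockdown (KD) left of control (NTC) in each experiment and each colour a gene. The SK-N-SH CRISPRi bars reach 484.8 with knockdown and 252.4 in control, of which CDH2 and PCDH10 are the largest parts, and PCDH10 is visible in no siRNA bar.

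Levels in control libraries differed between the SK-N-SH experiments too. These are descriptions, since library kit, delivery and depth differ at once between the experiments and their effects cannot be told apart. The sources used here do not say whether both SK-N-SH experiments drew on the same stock of cells. PCDH10 was 585-fold higher in CRISPRi than in siRNA controls (809.4 ± 76.4 CPM, n = 3, and 1.38 ± 0.260 CPM, n = 5, SD), and PCDH7 was 19.1-fold and CDH10 34.6-fold higher. PCDH17 was 6.88-fold and PCDH12 37.2-fold higher in siRNA controls, and CDH9 had no read there. The PCDH12 locus overlaps the protein-coding gene RNF14 on the opposite strand. Of 17 genes that reached 1 CPM in either control group, 5 were at least 10-fold apart (CDH9, CDH10, PCDH7, PCDH10 and PCDH12), where 5.27% of all such genes were. Between SK-N-SH and SK-N-AS CRISPRi controls 7 of 17 were (CDH6, CDH9, CDH13, CDH18, CDH20, CDH23 and PCDH10, background 12.4%), and between the siRNA controls and SK-N-AS 7 of 17 (CDH10, CDH13, CDH23, PCDH7, PCDH10, PCDH12 and PCDH17, background 15.5%). CDH2, CDH11, PCDH18 and CDH24 lay closer together over the 3 control groups, at 500.2, 551.9 and 937.1 CPM for CDH2 and 57.6, 56.7 and 50.4 CPM for CDH24 in siRNA, SK-N-SH CRISPRi and SK-N-AS controls.

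**Figure D4:**
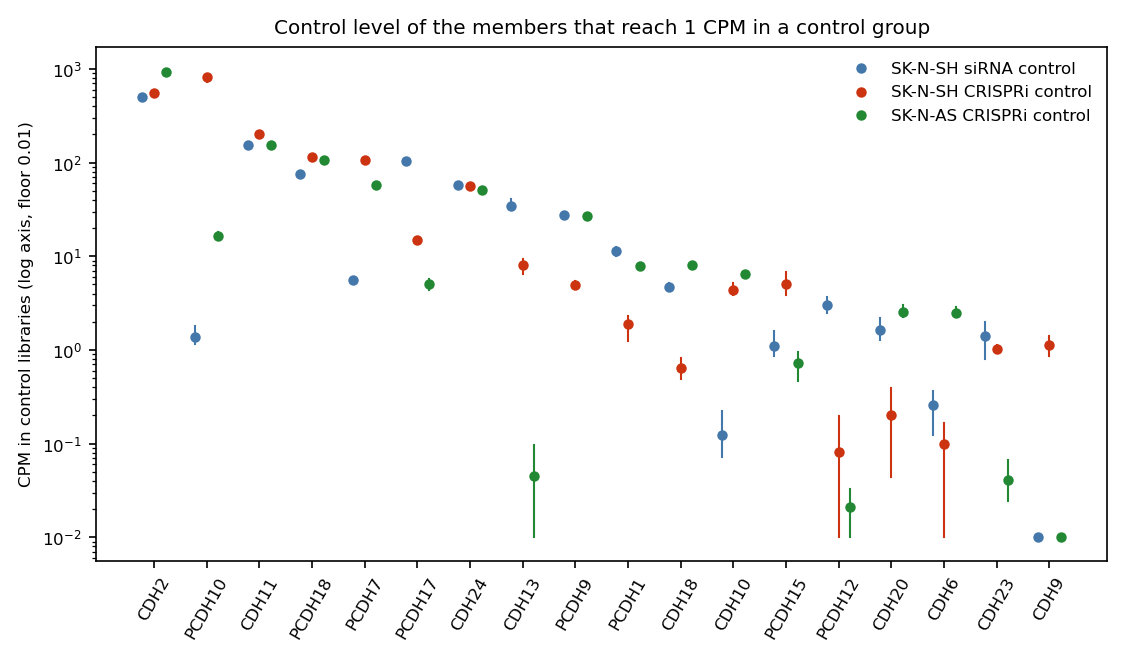
Mean control level (CPM, log axis) of the 18 genes that reach 1 CPM in a control group, with bars over the lowest to highest library and values under 0.01 CPM drawn at 0.01. CDH2 lies between 500.2 and 937.1 CPM in all 3 control groups, whereas PCDH10 spans 1.38 to 809.4 CPM.

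Whether a response differed between experiments was tested as an interaction, knockdown against own control, in a joint fit of each pair of experiments. For CRISPRi against siRNA in SK-N-SH, 13 of the genes had passed the filter in both experiments and 10 of these differed, 6 with a positive difference (CRISPRi above siRNA) and 4 with a negative one. Among all genes that passed in both, 45.8% differed (22.5% positive and 23.3% negative). The joint fit held 26 of the genes, of which 11 were called, beside 31.4% of all genes in it. Of those that had failed the filter in at least 1 experiment CDH17 was called, on 13 SK-N-SH CRISPRi reads in all, and no difference is read from it. CDH2 had a difference of log2 fold changes of 1.44 ± 0.06 (adjusted p = 7.34e-19), CDH11 of 1.44 ± 0.06 (2.41e-19), PCDH10 of 2.01 ± 0.21 (4.46e-07), CDH13 of 1.94 ± 0.16 (3.52e-10), PCDH18 of 1.01 ± 0.07 (2.03e-14) and CDH18 of 1.41 ± 0.37 (0.00255). PCDH17 differed by -1.94 ± 0.12 (adjusted p = 1.33e-15), CDH24 by -0.53 ± 0.08 (1.99e-06) and CDH23 by -2.15 ± 0.57 (0.00321), the last by -3.25 without SK-N-SH CRISPRi knockdown library 3 and -1.57 without library 2. PCDH7, which rose by both methods, differed by 0.06 ± 0.08 (adjusted p = 0.708). The difference of PCDH1 (-0.86 ± 0.33, adjusted p = 0.0456) was lost without CRISPRi knockdown library 2 (0.229) or 3 (0.0868), CRISPRi control library 2 (0.148) or 3 (0.166), or any siRNA library but knockdown 4 and control 5 (0.0507 to 0.0649). That of PCDH15 missed the threshold (adjusted p = 0.118) and passed it without siRNA control library 2 (0.0296).

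For SK-N-SH against SK-N-AS CRISPRi, 12 of the genes had passed the filter in both experiments and 8 of these differed, 5 with a positive difference (SK-N-SH above SK-N-AS) and 3 with a negative one. Among all genes that passed in both, 40.1% differed (21.6% positive and 18.5% negative). The joint fit held 22 of the genes, of which 9 were called, beside 30.7% of all genes in it. The positive differences were those of PCDH18 (1.56 ± 0.06, adjusted p = 3.74e-27), CDH11 (1.32 ± 0.05, 3.74e-27), CDH2 (0.98 ± 0.04, 1.76e-23), PCDH7 (0.77 ± 0.06, 8.21e-14) and PCDH10 (0.65 ± 0.08, 3.57e-06). The negative ones were those of PCDH17 (-1.91 ± 0.17, 2.80e-13), CDH10 (-0.89 ± 0.19, 0.000207) and CDH24 (-0.24 ± 0.07, 0.00552). CDH23 had failed the filter in SK-N-AS, with 16 knockdown and 9 control reads, and no difference is read from its value in the fit (-2.78 ± 1.07, adjusted p = 0.0432, and -3.92 to -2.08 over the alternatives). That call was lost without SK-N-AS knockdown library 3 (adjusted p = 0.18) or 4 (0.0625), SK-N-AS control library 3 (0.0761) or 4 (0.0573), SK-N-SH knockdown library 1 (0.102) or 2 (0.151), or SK-N-SH control library 1 (0.0773), 2 (0.0946) or 3 (0.086). PCDH1, down in both lines, differed by -0.19 ± 0.29 (adjusted p = 0.702). These tests use the same SK-N-SH CRISPRi libraries as the comparison with siRNA. The siRNA and SK-N-AS experiments differ in both line and method, and their difference was not tested.

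**Figure D5:**
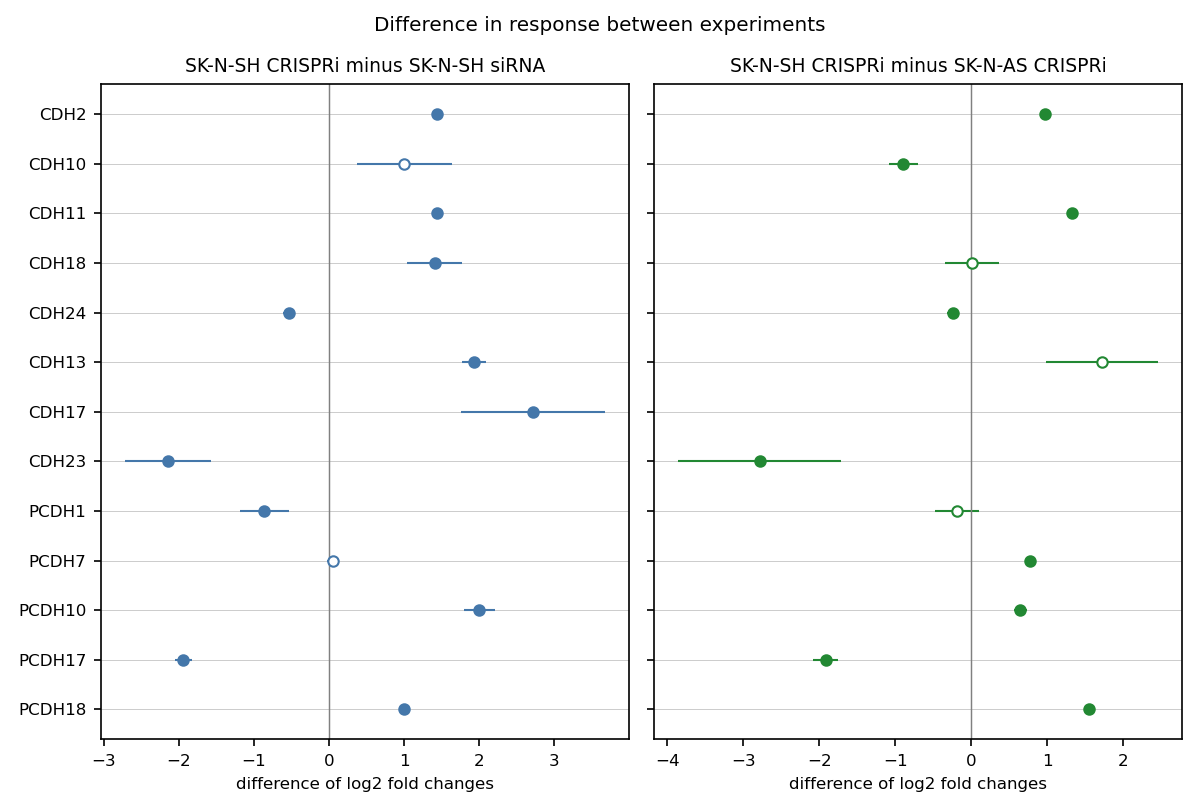
Difference of log2 fold changes (points, with standard error bars; filled where the adjusted p is under 0.05) for the 13 genes with a called difference in either test, SK-N-SH CRISPRi minus SK-N-SH siRNA on the left and SK-N-SH CRISPRi minus SK-N-AS CRISPRi on the right. CDH2, CDH11, PCDH10 and PCDH18 lie right of 0 in both panels and PCDH17 and CDH24 left of 0 in both. CDH10 and CDH17 on the left, and CDH13 and CDH23 on the right, failed the filter on low counts in 1 of the experiments compared, and no difference is read from those points.

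Partners of the cadherins were counted from lists of related genes. Their counts stand beside backgrounds of 55.8% of all tested genes called in SK-N-SH CRISPRi, 30.6% in SK-N-AS and 9.53% with siRNA, and nothing particular to a list is read from them. The list of catenins, their relatives and their partners holds 17 genes. In SK-N-SH CRISPRi 14 of these were tested, of which 5 rose and 4 fell, or 64.3% called. VCL, the actin linker vinculin, averaged 1168 CPM in knockdown and 590.8 CPM in control libraries (0.98 ± 0.04, adjusted p = 5.31e-22), and CTNNA1, alpha-E-catenin, rose by less (0.49 ± 0.04, 9.42e-14). CTNNA2, the neural alpha-catenin, averaged 6.24 CPM in knockdown and 23.2 CPM in control libraries (-1.89 ± 0.10, 2.55e-18), and ARVCF fell (-0.68 ± 0.07, 4.65e-11). In SK-N-AS 33.3% of 15 were called and 4 rose, among them VCL (0.39 ± 0.03, 5.26e-14), JUP (plakoglobin, 0.32 ± 0.04, 1.34e-08) and CTNNA1 (0.17 ± 0.03, 1.10e-06), and PKP4 fell (-0.17 ± 0.03, 0.000119). With siRNA 1 of 14 was called (7.14%), CTNNBIP1 (-0.16 ± 0.05, 0.026), an inhibitor of beta-catenin signalling.

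Of the 10 WAVE complex genes, 9 were tested, and 5 rose and 4 fell in SK-N-SH CRISPRi (100%, beside 55.8% of all tested genes). NCKAP1, the subunit that PCDH10 binds, rose (0.31 ± 0.04, adjusted p = 2.64e-08), as did ABI1 (0.36 ± 0.06, 8.13e-07) and WASF2 (0.23 ± 0.04, 1.68e-05), while ABI2 fell (-0.24 ± 0.04, 1.62e-05). In SK-N-AS 2 rose and 1 fell (33.3%), close to the background of 30.6%, with CYFIP2 at -0.87 ± 0.11 (9.07e-08), WASF3 at 0.30 ± 0.06 (0.000174) and NCKAP1 at 0.09 ± 0.03 (0.0152). With siRNA CYFIP2 alone was called (-0.19 ± 0.04, 0.00527), or 11.1% beside 9.53% of all tested genes. Of the proteases that process cadherins, 7 of 9 rose and 1 fell in SK-N-SH CRISPRi (88.9% called, beside 55.8% of all tested genes). NCSTN, a gamma-secretase subunit, stood at 0.59 ± 0.04 (6.34e-16), FURIN at 0.52 ± 0.05 (7.16e-12), PSEN2 at 1.01 ± 0.23 (0.000226) and PCSK6 at -1.49 ± 0.24 (1.45e-06). With siRNA the 2 called of 9 fell, FURIN (-0.24 ± 0.05, 0.00196) and NCSTN (-0.21 ± 0.05, 0.00227), and in SK-N-AS 3 of 10 rose and 3 fell (60%), with NCSTN, FURIN and ADAM10 at 0.24, 0.32 and 0.26 and PCSK6 at -0.60.

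Among other members of the superfamily, none of the 8 desmosomal genes passed the filter in any experiment. Of 17 atypical cadherins, 3 of 11 tested rose and 6 fell in SK-N-SH CRISPRi (81.8% called, beside 55.8% of all tested genes). These were led by the planar polarity cadherin DCHS1 (-1.43 ± 0.06, adjusted p = 2.40e-22), the calsyntenin CLSTN2 (-1.84 ± 0.09, 2.24e-17), CELSR2 (-0.85 ± 0.07, 1.23e-13) and CELSR3 (-0.55 ± 0.05, 5.73e-12). In SK-N-AS 3 of 10 rose and 3 fell (60%, beside 30.6% of all tested genes), with DCHS1 at -0.54 ± 0.04 (8.06e-13), CELSR3 at -0.23 ± 0.04 (2.71e-06), CLSTN3 at 0.24 ± 0.03 (2.46e-07) and FAT2 at 1.78 ± 0.34 (9.21e-05). With siRNA 1 of 15 rose, CDHR1 (0.35), and 2 fell, CELSR1 (-0.34) and FAT3 (-0.42), or 20% called beside 9.53% of all tested genes. Of the 53 clustered protocadherins, 14 of 34 tested rose and 7 fell in SK-N-SH CRISPRi (61.8%). Their median log2 fold change was 0.35, beside -0.01 over all genes. Reads of the alpha and gamma genes are uncertain, since genes of each of these clusters share exons. PCDHB8 (2.03 ± 0.13, 6.96e-16) and PCDHB2 (1.49 ± 0.14, 1.76e-11) rose, and PCDHGC4 (-2.29 ± 0.16, 1.23e-15) and PCDHAC2 (-1.70 ± 0.13, 8.95e-14) fell. The clustered genes called in SK-N-AS (20.9%) and with siRNA (7.84%) were no larger a share than the background. In SK-N-AS 2 of 43 rose and 7 fell, led by PCDHB5 (-0.60), PCDHA3 (-0.54), PCDHGB7 (-0.23) and PCDHB16 (-0.63), and with siRNA the 4 called of 51 fell, which were PCDHGC3 (-0.31), PCDHGC5 (-0.66), PCDHGB7 (-0.18) and PCDHGA4 (-0.32). The list of nectins, the immunoglobulin receptors that join cadherins at junctions, holds 5 genes and includes the nectin-like PVR. Of these, NECTIN1 fell in SK-N-SH CRISPRi (-0.78 ± 0.05, 1.05e-16) while NECTIN2 (0.37), PVR (0.33) and NECTIN3 (0.24) rose. In SK-N-AS 1 of 4 was called (25%), NECTIN2 (0.35 ± 0.04, 3.49e-08), and with siRNA NECTIN4 fell (-0.92) and NECTIN1 rose (0.16).

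Of the 6 transcription factors of the mesenchymal transition, which act on cadherin genes, 3 were called in SK-N-SH CRISPRi (50%, under the background) and 4 in SK-N-AS (66.7%). TWIST1 fell in both CRISPRi experiments, at -0.60 ± 0.04 in SK-N-SH (adjusted p = 9.71e-16) and -0.77 ± 0.04 in SK-N-AS (4.96e-17). In SK-N-SH CRISPRi TWIST2 rose (0.88 ± 0.13, 2.42e-07) and ZEB2 fell (-0.31 ± 0.05, 5.75e-06). In SK-N-AS SNAI2 (0.56 ± 0.04, 8.41e-13), which is also on the mesenchymal list, ZEB2 (0.27 ± 0.04, 1.59e-07) and SNAI1 (0.16 ± 0.05, 0.0137) rose. With siRNA the smallest adjusted p among the 6 was 0.0658, for TWIST2 (-0.32 ± 0.11).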

How the data were processed

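Per the labels' protocols, RNA was isolated with TRIzol and RNeasy, the CRISPRi libraries were made with a stranded mRNA kit, and the siRNA libraries from poly-T selected mRNA. The deposited tables hold raw read counts per gene, 1 table per experiment, with 24 libraries in all. Per the submitters' processing notes the authors used featureCounts 1.5.1, STAR 2.6.1d, FastQC 0.11.8, CASAVA and bcl2fastq 2.20.0.422 and 2.20, with GRCh38. The sources used here give neither strand setting nor annotation release. Whether reads of a gene were counted apart from those of one overlapping it on the other strand is therefore not known (20 of the 36 genes have one).

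Each table was analysed against its own controls in R 4.3.3. edgeR 4.0.16 kept genes by filterByExpr (minimum count 10, minimum total 15), scaled by TMM factors and tested with glmQLFit (robust) and glmQLFTest, two-sided, with Benjamini-Hochberg adjustment over all genes and a threshold of 0.05. CPM are counts divided by the TMM-scaled total of tested genes. No library was left out of the main tests or imputed. Differences between experiments were interaction terms in a joint edgeR fit with a single spread per gene. No 2 libraries were identical, and same-numbered libraries did not deviate together (correlations of -0.136 to 0.048), so no pairing was assumed. DESeq2 1.42.0, other scalings and filters, the replicate block and leaving out each library were alternatives, and SK-N-AS counts halved and siRNA libraries left out together (2, and 3) were added after the data were seen. The scripts were tested on simulated counts. Genes and lists were chosen with earlier results of these data known. Named are all 36 genes, with values per library for those called at 2-fold or more and the 5 highest in controls, and up to 4 called genes of each partner list with the smallest adjusted p. A gene each of the adrenergic and blood marker lists is not reported here and was left out of the sums and counts.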

Additional observations from a re-analysis of the deposited data

Results flagged for a closer look

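In 5 of the 80 groups of 4 or 5 libraries examined, 1 library lay far from the rest of its group, and chance alone gives about 1 in 20. CDH15 had 0.0661 CPM in siRNA knockdown library 1, against 0.228 to 0.317 CPM in the other knockdown libraries. CDH18 had 1.55 CPM in the same library, against 2.02 to 2.13 CPM in the others, and all of these lay under every control. CDH26 had 0.214 CPM in siRNA control library 2 (others 0.319 to 0.360) and CDH3 had 0.494 CPM there (others 0.144 to 0.208). PCDH7 had 6.07 CPM in siRNA control library 3 (others 5.34 to 5.50).

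A further 20 values were tested differences in response between experiments. SK-N-SH CRISPRi minus SK-N-SH siRNA gave differences of log2 fold changes of 1.44 for CDH11, 1.94 for CDH13, 2.72 for CDH17, 1.41 for CDH18, 1.44 for CDH2 and 2.01 for PCDH10. It also gave 1.01 for PCDH18, -2.15 for CDH23, -0.53 for CDH24, -0.86 for PCDH1 and -1.94 for PCDH17. SK-N-SH CRISPRi minus SK-N-AS CRISPRi gave 1.32 for CDH11, 0.98 for CDH2, 0.65 for PCDH10, 1.56 for PCDH18 and 0.77 for PCDH7, and -0.89 for CDH10, -2.78 for CDH23, -0.24 for CDH24 and -1.91 for PCDH17. No difference is read from CDH17, nor from CDH23 against SK-N-AS, since each failed the filter on low counts in 1 of the experiments compared. CDH17 rests on 10 knockdown and 3 control reads in SK-N-SH CRISPRi and on 59 knockdown and 102 control reads with siRNA. CDH23 rests on 10 knockdown and 50 control reads in SK-N-SH CRISPRi and on 16 knockdown and 9 control reads in SK-N-AS.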

How the results depend on the processing

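Of 46 called results for these genes, 41 kept their call under every alternative that tested them, and no called value changed sign. The others were CDH24 in SK-N-AS, PCDH1 in SK-N-SH CRISPRi and the differences of CDH23, CDH17 and PCDH1 named above. With upper quartile factors 2 genes rose with siRNA in place of 1, CDH24 passing at adjusted p = 0.0467, and the share of upward calls over all genes in that experiment was 43.3% in place of 26.7%. Leaving out 1 library at a time gave 4 falls and 1 to 2 rises with siRNA, 3 to 5 falls and 7 rises in SK-N-SH CRISPRi, and 5 to 6 falls and 5 rises in SK-N-AS. The joint fits also held genes of the family below the filter in at least 1 experiment. With these included, leaving out 1 library gave 6 to 7 positive and 3 to 6 negative family differences against siRNA. Against SK-N-AS it gave 5 to 6 positive and 3 to 4 negative. Under the replicate block there were 4 falls and 1 rise with siRNA, 5 and 7 in SK-N-SH CRISPRi, and 5 and 5 in SK-N-AS. The block also lost the differences of CDH17 (adjusted p = 0.0569), PCDH1 (0.0587) and CDH23 (0.0503), and calls over all genes with siRNA numbered 1532 in place of 2004, but the shared numbers are not known to pair libraries. SK-N-AS counts halved, added after seeing the data, gave 5 falls and 5 rises there and lost the CDH23 difference (0.0581). Without siRNA knockdown library 4 and control library 5, likewise added, 4 genes fell and 1 rose, and so they did with knockdown library 3 left out as well. The cause of these changes was not tested. Depth limits CDH22 and PCDH11X in SK-N-AS, and CDH23, PCDH1, CDH9 and CDH18 in SK-N-SH CRISPRi, whose groups held 10 to 317 reads.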
